A study of Mus musculus with 8 samples.

Results

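The genes described here are 46 genes of cell proliferation, chosen by symbol from the table of gene counts with earlier results of these data known. Of these, 20 act in S phase, mainly in DNA replication, and 26 act in G2 phase and mitosis. All 46 were found among the 47706 listed genes, each as a single entry. They were followed in primary calvarial osteoblasts, the bone-forming cells of the mouse skullcap, in 4 samples treated with parathyroid hormone (PTH) and 4 samples treated with vehicle. Both treatments lasted 24 hours and followed 7 days of differentiation, and both groups came from newborn calvaria and were starved of serum before treatment. The labels begin every sample name with "Con" and give no genotype, strain or sex, and nothing says whether the 4 samples of a group came from separate animals or isolations, so the p-values below measure the spread between these samples only. The question was which genes of the S phase and mitosis programs differed between PTH and vehicle.

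Cells that divide copy their DNA in S phase and separate the copies in mitosis, and each step draws on its own set of transcripts. E2F factors drive the replication genes as cells leave G1 phase, and RB proteins hold E2F in check. The mitosis genes come on later, under B-MYB, FOXM1 and the MuvB core, which bind promoters that carry a CHR element, often beside CCAAT boxes bound by NF-Y. In resting cells the DREAM complex, built from MuvB, E2F4 and an RB-like protein, represses both sets. Osteoblast precursors divide, and division slows as the cells mature and lay down matrix.

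Counts per sample totalled between 33605610 and 56090654, and 16736 genes passed the filter on low counts and were tested. All 46 genes passed it, with between 48 and 5526 counts in any sample. Levels are given as CPM, each gene's count scaled to its normalized library size (counts per 1e6). A median of between 208 and 353 CPM was found over 12 osteoblast markers in the 8 samples, and of between 3.89 and 6.32 CPM over 6 adipocyte markers. Of the osteoblast markers, 4 were downregulated with PTH (Runx2, Sp7, Dmp1 and Pth1r, by 0.33 to 1.78 on the log2 scale) and 8 did not pass the test. Over all tested genes, 22.5% were downregulated and 23.3% upregulated, for comparison with these and the marker counts below. The labels name adipogenic differentiation, whereas the study's methods describe osteogenic medium. Markers of other cells were also summed. In all, 10 macrophage markers summed to 955 to 1546 CPM with vehicle and 1505 to 1958 CPM with PTH, none was at 0 throughout, and 3 of the 10 were upregulated. Skeletal muscle markers summed to 5.05 CPM at most and endothelial markers to 6.96 CPM at most, with Emcn at 0. Of 3 tested muscle markers, 1 was upregulated, and of 4 tested endothelial markers, 1 was upregulated and 1 downregulated. Osteoclast markers summed to 411 to 590 CPM, with Dcstamp at 0. Chondrocyte markers summed to 319 to 336 CPM with vehicle and 372 to 490 CPM with PTH, with 2 of 5 tested upregulated. Of 5 tested adipocyte markers, 1 was downregulated, and no osteoclast marker passed the test. The part of these cell types in the results below was not tested. In bulk RNA, fewer dividing cells and less RNA of these genes per dividing cell cannot be told apart.

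Promoter sequence was examined first, since the 2 sets of genes are read through different elements. RefSeq windows on GRCm38.p6, from 250 bases before to 50 bases after the annotated start, were matched for 38 of the 46 genes. Aurkb, Ccna2, Foxm1, Gins1, Gins2, Kif20a, Mcm4 and Tpx2 were not matched. Both strands were searched for the CHR element (TTTGAA), the NF-Y box (CCAAT) and E2F sites (TTCCCGC or TTGGCGC), of which an E2F site can overlap an NF-Y box. Stretches of 200 bases that end just before the start are printed below, 5′ to 3′ on the gene's strand, with every match on either strand in capitals. First come 4 mitosis genes, chosen to show windows with 1 or 2 CHR matches: Mki67 at chr7:135716380-135716579 (minus strand), Top2a at chr11:99024190-99024389 (minus strand), Kif11 at chr19:37376182-37376381 (plus strand) and Ttk at chr9:83834489-83834688 (plus strand), whose only CHR match is not within the printed stretch.
Mki67: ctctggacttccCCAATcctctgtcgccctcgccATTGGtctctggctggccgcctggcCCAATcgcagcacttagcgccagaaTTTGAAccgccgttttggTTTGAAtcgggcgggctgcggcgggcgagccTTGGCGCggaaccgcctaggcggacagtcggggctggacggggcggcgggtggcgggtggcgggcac
Top2a: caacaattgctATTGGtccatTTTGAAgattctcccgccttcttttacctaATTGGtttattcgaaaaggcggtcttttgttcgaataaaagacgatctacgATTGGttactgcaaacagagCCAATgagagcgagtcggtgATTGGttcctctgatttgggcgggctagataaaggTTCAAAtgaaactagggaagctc
Kif11: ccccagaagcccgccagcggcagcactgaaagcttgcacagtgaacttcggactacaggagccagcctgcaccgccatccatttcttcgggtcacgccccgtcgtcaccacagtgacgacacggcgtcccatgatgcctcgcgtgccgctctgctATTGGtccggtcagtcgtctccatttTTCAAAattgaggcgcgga
Ttk: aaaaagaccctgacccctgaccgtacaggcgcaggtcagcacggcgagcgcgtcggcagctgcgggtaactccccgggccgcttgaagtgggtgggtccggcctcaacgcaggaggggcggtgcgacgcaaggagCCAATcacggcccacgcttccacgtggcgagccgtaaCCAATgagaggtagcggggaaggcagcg

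Next come 3 replication genes, of which Mcm6 and Rrm1 fell with PTH and Tyms rose: Mcm6 at chr1:128359706-128359905 (minus strand), Rrm1 at chr7:102441495-102441694 (plus strand) and Tyms at chr5:30073626-30073825 (minus strand). Both E2F letterings of Mcm6 read TTGGCGC, Rrm1 carries TTCCCGC, and Tyms holds no match to any of the 3 motifs in its window.
Mcm6: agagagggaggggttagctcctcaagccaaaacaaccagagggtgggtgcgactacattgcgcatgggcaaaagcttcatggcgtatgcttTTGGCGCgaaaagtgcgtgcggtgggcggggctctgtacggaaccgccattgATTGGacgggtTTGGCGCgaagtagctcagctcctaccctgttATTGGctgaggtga
Rrm1: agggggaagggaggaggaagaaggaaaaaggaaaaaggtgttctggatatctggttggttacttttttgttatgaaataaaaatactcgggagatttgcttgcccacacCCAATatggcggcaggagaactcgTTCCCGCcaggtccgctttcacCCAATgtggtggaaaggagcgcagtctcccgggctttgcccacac
Tyms: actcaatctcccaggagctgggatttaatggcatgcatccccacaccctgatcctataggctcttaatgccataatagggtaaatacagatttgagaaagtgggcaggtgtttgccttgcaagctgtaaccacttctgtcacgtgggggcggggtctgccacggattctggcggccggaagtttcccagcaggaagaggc

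The CHR letters stood in 14 of 21 mitosis windows (66.7%) and in 3 of 17 replication windows (17.6%), against 20.2% of all 27025 genes with a window. E2F letters showed the opposite split, in 9 of 17 replication windows (52.9%) and 3 of 21 mitosis windows (14.3%), against 7.79% of all genes. NF-Y boxes were present in 17 of 21 mitosis windows (81.0%) and 11 of 17 replication windows (64.7%), against 41.1% of all genes. Every mitosis window with a CHR match also held an NF-Y box. Among mitosis genes the CHR match did not separate genes by their response: it was found in 8 of 12 that fell with PTH and in 6 of 9 that did not pass the test. Among replication genes, E2F letters stood in 7 of 9 that fell, 2 of 6 that did not pass the test and 0 of the 2 that rose. These matches describe the letters in the window and not the binding of a factor.

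**Figure D1:**
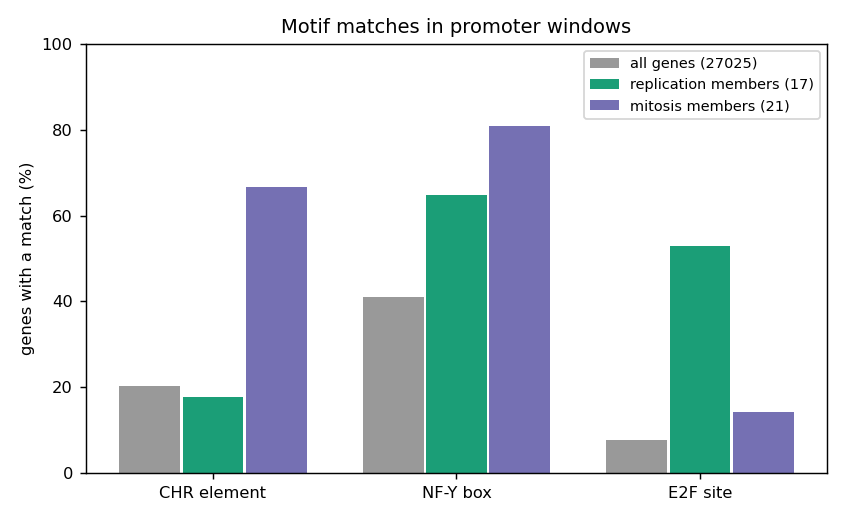
Share of genes (%) whose promoter window held each motif, for all 27025 genes with a RefSeq window (grey), 17 replication genes (green) and 21 mitosis genes (purple). The CHR element stood in 66.7% of mitosis windows and 17.6% of replication windows, and the E2F site in 14.3% and 52.9%.

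The mitosis genes among the 46 were lower with PTH as a group, and the replication genes were split. Both sets were chosen with earlier results of these data known. Of the 26 mitosis genes, 16 (61.5%) were downregulated, none was upregulated and 10 did not pass the test. Of the 20 replication genes, 10 were downregulated, 2 (Tyms and Pcna) were upregulated and 8 did not pass. Over all tested genes, edgeR's quasi-likelihood test called 22.5% downregulated and 23.3% upregulated at a Benjamini-Hochberg adjusted p under 0.05. The median log2 fold change was -0.48 for mitosis genes (range -1.16 to 0.082) and -0.27 for replication genes (range -0.75 to 0.79), against -0.00081 for all tested genes. A log2 fold change below 0 was seen in 25 of 26 mitosis genes and 14 of 20 replication genes, against 50.1% of all tested genes. DESeq2 called 16 mitosis genes downregulated and 0 upregulated, against 3775 and 4104 of the 26477 genes in that fit. At an unadjusted p under 0.05, 19 mitosis genes were lower and none was higher. The share of all tested genes at that looser cutoff was not computed, so these counts have no background beside them.

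All 4 PTH samples lay below all 4 vehicle samples in 13 mitosis genes and 9 replication genes, against 21.8% of all tested genes. All 4 PTH samples lay above vehicle in Tyms and Pcna, against 21.2% of all tested genes. In the other 22 genes the groups overlapped, and 4 of these (Mcm5, Ccna2, Bub1 and Kif11) still passed the test. Most changes were small: Ttk and Kif23 alone among the 46 passed the test with a log2 fold change beyond 1.

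**Figure D2:**
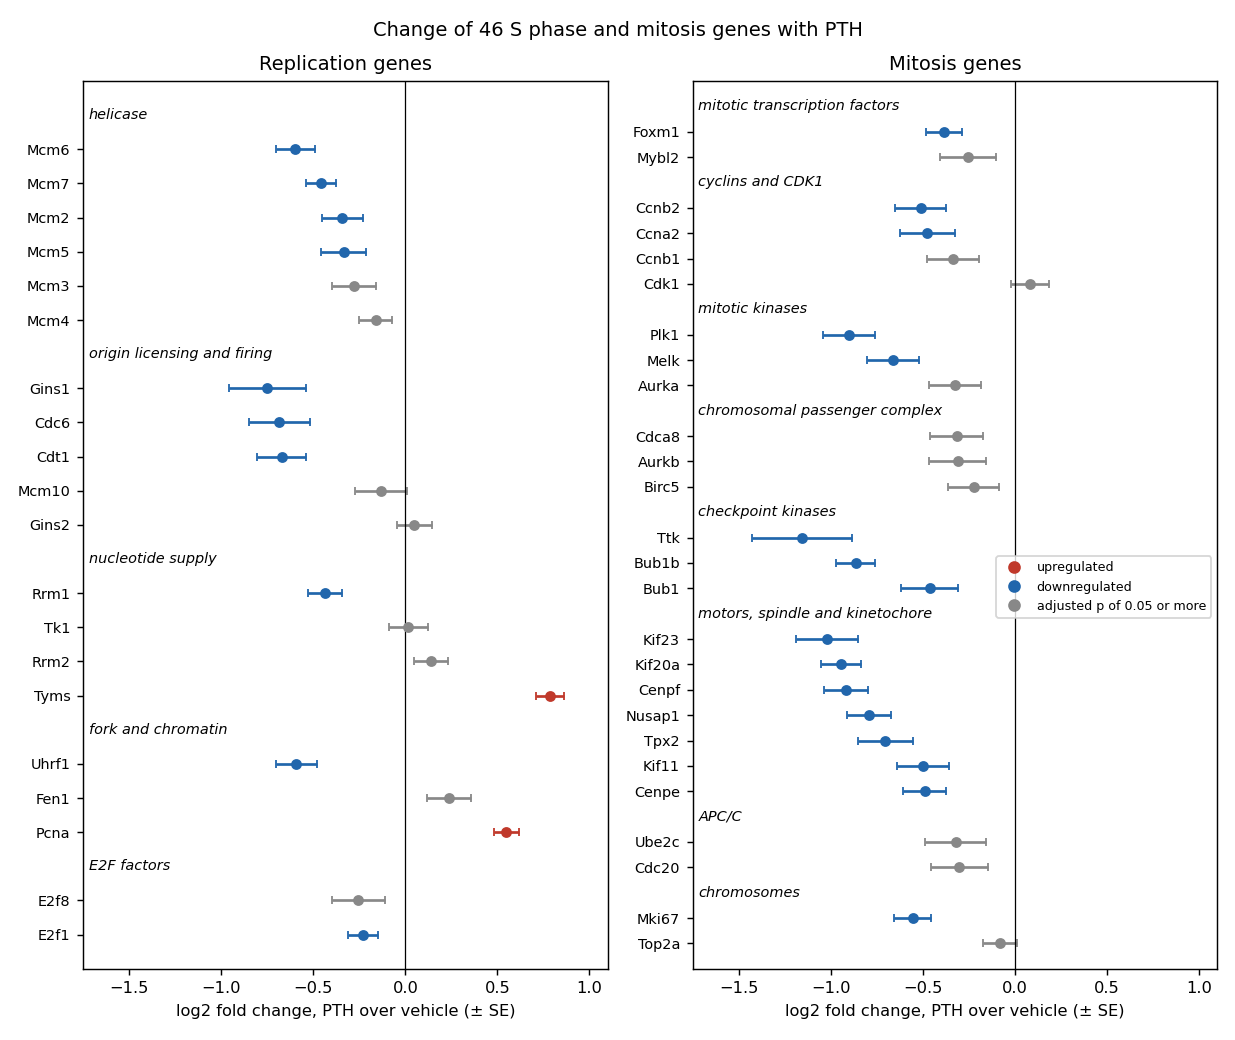
Log2 fold change of PTH over vehicle (x axis, bars are ± SE from edgeR, 4 samples per group) for the 20 replication genes (left) and 26 mitosis genes (right), ordered by role. Blue points were downregulated, red points upregulated and grey points did not pass the test. Every gene grouped under checkpoint kinases or under motors, spindle and kinetochore is blue.

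The MCM2 to MCM7 proteins form the hexameric helicase that unwinds DNA at the fork. Of the 6 genes, 4 were downregulated, against 22.5% of all tested genes. Mcm6, at chr1:128331590-128359664, measured 40.6, 49.9, 43.7 and 54.0 CPM in vehicle samples 1 to 4 and 36.0, 28.2, 27.8 and 32.3 CPM in PTH samples 1 to 4. Every PTH sample was below every vehicle sample, and Mcm6 fell by 0.60 on the log2 scale (SE 0.108, adjusted p = 7.43e-04). Mcm7 fell by 0.46 (SE 0.0805, adjusted p = 6.10e-04), from 38.3 ± 0.907 to 27.9 ± 2.94 CPM (mean ± SD, n = 4). Mcm7 shares exon bases with Ap4m1 and Cops6 on the opposite strand and its locus with microRNA genes, and the strand setting of the counting is not stated. The processed pseudogene Gm5487 is 97.7% identical to Mcm7 over 2157 bases. The part of these genes in the Mcm7 values was not tested. Mcm2 and Mcm5 fell by 0.34 each, with adjusted p = 0.0241 and 0.0420. These were the weaker calls of the complex: Mcm5 lost its call without any 1 of 7 libraries, all but PTH sample 1, with adjusted p between 0.00104 and 0.366 over all alternatives, and Mcm2 lost it without PTH sample 2, PTH sample 3, vehicle sample 2 or vehicle sample 4 (7.46e-04 to 0.218). Mcm3 and Mcm4 had log2 fold changes of -0.28 and -0.16 and did not pass. Without PTH sample 1 both were downregulated (adjusted p = 0.0417 and 0.0398), as was Mcm3 without PTH sample 4 (adjusted p = 0.0338). Over all alternatives the adjusted p reached 0.600 for Mcm3 and 0.823 for Mcm4.

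Genes that load and fire the helicase included the replication genes that fell the most. CDC6 and CDT1 load MCM2 to MCM7 onto origins, and Cdc6 fell by 0.68 (adjusted p = 0.00515) and Cdt1 by 0.67 (adjusted p = 0.00142). GINS1 and GINS2 are subunits of the GINS complex, which turns the loaded ring into an active helicase. Gins1 measured 3.14, 2.32, 3.11 and 2.68 CPM with vehicle and 1.44, 1.47, 2.09 and 1.69 CPM with PTH. Its groups did not overlap, and Gins1 fell by 0.75 (SE 0.210, adjusted p = 0.0114). Gins2, of the same complex, measured 14.0, 12.6, 13.4 and 13.9 CPM with vehicle and 11.9, 15.01, 14.1 and 14.8 CPM with PTH. Of the PTH samples, 3 were above every vehicle sample and 1 was below all of them, and the log2 fold change of 0.048 (adjusted p = 0.714) did not pass. Gins2 shares 2758 identical bases with Gse1, which runs on the opposite strand and held 69.7% of the counts of the pair. The part of Gse1 in the Gins2 values was not tested. Mcm10, which helps activate the helicase, had a log2 fold change of -0.13 and did not pass (adjusted p = 0.484).

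Nucleotide supply moved in both directions. RRM1 and RRM2 are the subunits of ribonucleotide reductase, which makes deoxynucleotides. Rrm1 measured 95.1, 109, 107 and 111 CPM with vehicle and 88.3, 67.2, 72.5 and 84.0 CPM with PTH. No PTH sample reached the lowest vehicle sample, and Rrm1 fell by 0.44 (SE 0.0905, adjusted p = 0.00188). Rrm2 had a log2 fold change of 0.14 (adjusted p = 0.249). Tyms, at chr5:30058202-30073617, encodes thymidylate synthase, which makes thymidylate from deoxyuridylate, and it measured 12.4, 13.7, 13.7 and 14.0 CPM with vehicle and 24.7, 22.6, 22.8 and 22.7 CPM with PTH. The groups stood far apart, and Tyms rose by 0.79 (SE 0.0776, adjusted p = 5.61e-06), or 1.72-fold. Tk1, the thymidine kinase of the salvage route, had a log2 fold change of 0.017 (adjusted p = 0.909).

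At the fork and on new chromatin, Pcna rose and Uhrf1 fell. Pcna encodes the sliding clamp that holds polymerases on DNA and also serves DNA repair. Pcna, at chr2:132249162-132253314, measured 66.3, 59.3, 61.8 and 69.4 CPM with vehicle and 99.5, 91.5, 95.8 and 89.1 CPM with PTH. Every PTH sample was above every vehicle sample, and Pcna rose by 0.55 (SE 0.0684, adjusted p = 4.18e-05), or 1.46-fold. The processed pseudogene Pcna-ps2, which is 99.2% identical over 781 bases, took 1.56% of the counts of the pair. UHRF1 binds hemimethylated DNA and brings in the maintenance methyltransferase, and Uhrf1 measured 20.2, 22.2, 20.4 and 23.1 CPM with vehicle and 16.8, 13.2, 11.8 and 15.1 CPM with PTH. Its groups did not overlap, and Uhrf1 fell by 0.59 (SE 0.111, adjusted p = 9.38e-04). Fen1, the nuclease that trims Okazaki fragments, had a log2 fold change of 0.24 and did not pass (adjusted p = 0.124).

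The E2F factors among the 46 genes showed small differences. E2F1 activates replication genes, and E2f1 measured 25.96, 32.0, 27.4 and 26.7 CPM with vehicle and 24.5, 22.9, 23.1 and 25.04 CPM with PTH. The groups did not overlap, and E2f1 fell by 0.23 (SE 0.0822, adjusted p = 0.0381), and the call was lost without PTH sample 2, PTH sample 3, vehicle sample 2 or vehicle sample 3, by DESeq2 and with an offset for transcript length (adjusted p between 0.0281 and 0.218 over all alternatives). E2F8 is an atypical E2F that represses them, and E2f8 measured 5.26, 7.14, 6.76 and 7.41 CPM with vehicle and 6.06, 5.20, 4.80 and 6.18 CPM with PTH. Its groups overlapped through vehicle sample 1, and the log2 fold change of -0.25 did not pass (adjusted p = 0.177).

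**Figure D3:**
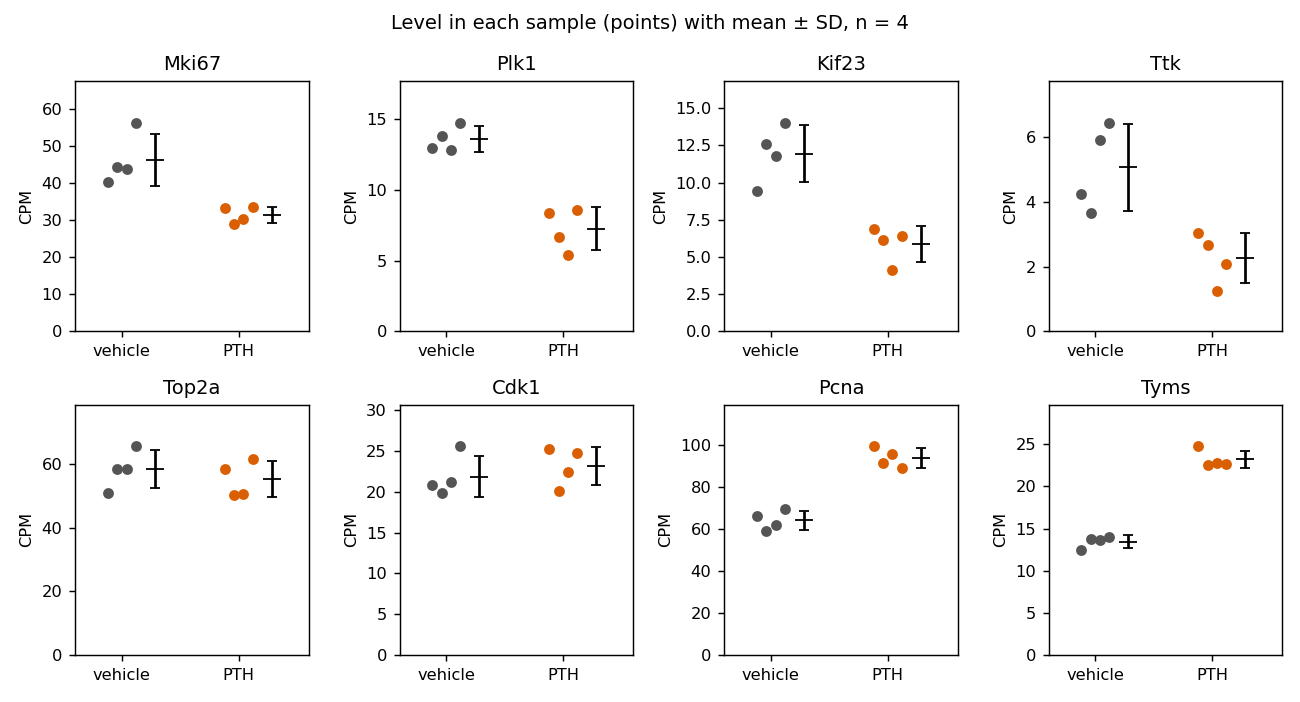
CPM (y axes, from 0) of 8 genes in each vehicle sample (grey points) and PTH sample (orange points), with the mean ± SD of 4 samples beside them. Mki67, Plk1, Kif23 and Ttk were lower in every PTH sample, Top2a and Cdk1 overlapped, and Pcna and Tyms were higher in every PTH sample.

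All 7 spindle and kinetochore genes among the 46 were downregulated, 6 of them with no overlap between groups, and their median log2 fold change was -0.79. Of 48 other mitosis genes, described below, 22 were downregulated and 4, Cenpa among them, were upregulated. Over all tested genes, 22.5% were downregulated and 21.8% had every PTH sample below every vehicle sample. KIF23 and KIF20A are kinesins of the central spindle that cytokinesis needs. Kif23, at chr9:61915905-61946774, measured 9.43, 12.6, 11.8 and 14.0 CPM with vehicle and 6.86, 6.11, 4.15 and 6.39 CPM with PTH. The highest PTH sample was below the lowest vehicle sample, and Kif23 fell by 1.02 (SE 0.166, adjusted p = 3.46e-04), which made it 2.03-fold lower. Kif20a fell by 0.95 (SE 0.108, adjusted p = 2.04e-05), and it overlaps Cdc23 on the opposite strand, which held 82.0% of the counts of the pair. Cdc23 was itself lower with PTH, at 10756 unscaled counts over the PTH samples against 17326 over the vehicle samples. TPX2 nucleates spindle microtubules and activates Aurora A, and Tpx2 measured 22.7, 27.2, 31.1 and 25.9 CPM with vehicle and 18.4, 13.8, 12.8 and 20.4 CPM with PTH. Its groups did not overlap, and Tpx2 fell by 0.70 (SE 0.148, adjusted p = 0.00203). CENPE and CENPF act at the kinetochore, where chromosomes meet the spindle, and Cenpf fell by 0.92 (adjusted p = 5.71e-05) and Cenpe by 0.49 (adjusted p = 0.00434). Nusap1, of a microtubule-bundling protein, fell by 0.79 (adjusted p = 2.13e-04). It overlaps Oip5 on the opposite strand, which held 16.0% of the counts of the pair (259 unscaled counts with PTH, 509 with vehicle). The part of Cdc23 and Oip5 in these falls was not tested. Kif11, the kinesin that pushes spindle poles apart, fell by 0.50 (adjusted p = 0.0115) with 1 vehicle sample inside the PTH range.

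The spindle checkpoint delays anaphase until every chromosome is attached. The 3 genes grouped here under checkpoint kinases were all downregulated, against 22.5% of all tested genes. Ttk (also called MPS1), at chr9:83834689-83872389, measured 4.24, 3.65, 5.92 and 6.45 CPM with vehicle and 3.04, 2.68, 1.25 and 2.09 CPM with PTH. The groups did not overlap, though each was widely spread, and Ttk fell by 1.16 (SE 0.272, adjusted p = 0.00424), the largest fall of the 46 genes, to a level 2.23-fold lower. Bub1b measured 14.3, 14.6, 13.1 and 15.1 CPM with vehicle and 8.40, 8.33, 6.52 and 8.08 CPM with PTH. These groups were tight and well apart, and Bub1b fell by 0.87 (SE 0.106, adjusted p = 3.69e-05). Bub1 fell by 0.46 (SE 0.156, adjusted p = 0.0286) with overlapping groups, and its call was lost without PTH sample 2, PTH sample 3, vehicle sample 2 or vehicle sample 4 (adjusted p between 0.00595 and 0.158 over all alternatives).

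Among the kinases that start and steer mitosis, Plk1 and Melk were downregulated. Polo-like kinase 1 acts from mitotic entry to cytokinesis, and Plk1, at chr7:122159439-122169873, measured 13.0, 13.9, 12.8 and 14.8 CPM with vehicle and 8.38, 6.68, 5.43 and 8.60 CPM with PTH. No PTH sample came near the vehicle range, and Plk1 fell by 0.90 (SE 0.141, adjusted p = 2.56e-04), to a level 1.87-fold lower. Melk fell by 0.66 (adjusted p = 0.00232). Aurka, of the centrosomal kinase Aurora A, had a log2 fold change of -0.32 and did not pass (adjusted p = 0.0807). It did pass without PTH sample 4 (adjusted p = 0.0466, between 0.00842 and 0.539 over all alternatives).

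The cyclins all had log2 fold changes below 0, while that of Cdk1 lay just above 0. CDK1 drives entry into mitosis with A-type and B-type cyclins, and Cdk1, at chr10:69335146-69352938, measured 20.8, 19.8, 21.2 and 25.5 CPM with vehicle and 25.3, 20.1, 22.4 and 24.7 CPM with PTH. The groups overlapped over nearly their whole range, and Cdk1 was the only mitosis gene with a log2 fold change above 0 (0.082, SE 0.102, adjusted p = 0.540). Ccna2, of cyclin A2, measured 24.998, 32.8, 30.9 and 37.5 CPM with vehicle and 27.7, 17.7, 19.9 and 25.3 CPM with PTH. PTH samples 1 and 4 lay above vehicle sample 1, and Ccna2 fell by 0.48 (SE 0.150, adjusted p = 0.0208), a call lost without PTH sample 2, PTH sample 3, vehicle sample 2 or vehicle sample 4 (adjusted p between 0.00136 and 0.203 over all alternatives). Ccna2 overlaps Exosc9 on the opposite strand, which held 42.7% of the counts of the pair. Ccnb2, of cyclin B2, measured 11.6, 14.3, 11.9 and 11.7 CPM with vehicle and 10.6, 7.82, 6.94 and 9.20 CPM with PTH. The groups did not overlap, and Ccnb2 fell by 0.51 (SE 0.137, adjusted p = 0.00893). Ccnb1, of cyclin B1, had a log2 fold change of -0.34 and did not pass (adjusted p = 0.0702). Ccnb1 did pass without PTH sample 1 (adjusted p = 0.0124, between 0.00483 and 0.514 over all alternatives). Its processed pseudogene Gm12856 took 12.3% of the counts of the pair.

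Of the transcription factors that switch mitosis genes on, Foxm1 was downregulated and Mybl2 did not pass. Foxm1 measured 18.2, 18.0, 18.9 and 20.5 CPM with vehicle and 15.03, 14.9, 12.0004 and 15.8 CPM with PTH. Every PTH sample was lower, and Foxm1 fell by 0.39 (SE 0.0980, adjusted p = 0.00655). Foxm1 sits in a locus with 3 other symbols in this table. Mybl2, which encodes B-MYB, had a log2 fold change of -0.25 (adjusted p = 0.201).

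No call was made in the chromosomal passenger complex, which corrects faulty attachments through Aurora B, or for CDC20 and UBE2C, which work with the anaphase-promoting complex (APC/C). Cdca8, of the passenger borealin, measured 7.27, 10.3, 10.9 and 11.8 CPM with vehicle and 8.62, 7.67, 7.57 and 8.51 CPM with PTH. Vehicle sample 1 was below all 4 PTH samples and the other vehicle samples were above them, at a change of -0.32 on the log2 scale (adjusted p = 0.0927). Birc5, of survivin, measured 9.88, 12.8, 14.2 and 13.9 CPM with vehicle and 10.7, 8.72, 11.5 and 12.5 CPM with PTH. These groups also overlapped through vehicle sample 1, at a change of -0.22 (adjusted p = 0.212), and Aurkb had -0.31 (adjusted p = 0.121). DESeq2 called 0 of these 3 genes, and 1 had an unadjusted p under 0.05. Without vehicle sample 1, Cdca8 and Aurkb were downregulated, by 0.45 (adjusted p = 0.00804) and 0.44 (adjusted p = 0.0219). Over all alternatives the adjusted p reached 0.362 for Cdca8 and 0.411 for Aurkb.

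CDC20 activates the APC/C, and Cdc20 measured 15.5, 15.4, 16.0 and 18.6 CPM with vehicle and 14.1, 13.6, 8.84 and 16.5 CPM with PTH. UBE2C is the ubiquitin-conjugating enzyme of the APC/C, and Ube2c measured 12.7, 11.5, 15.5 and 16.5 CPM with vehicle and 13.1, 8.45, 9.73 and 13.7 CPM with PTH. Both pairs of groups overlapped, with log2 fold changes of -0.30 for Cdc20 (SE 0.157, adjusted p = 0.139) and -0.32 for Ube2c (SE 0.164, adjusted p = 0.133). DESeq2 called 0 of the 2, and 0 had an unadjusted p under 0.05. Without PTH sample 4, Cdc20 was downregulated by 0.43 (adjusted p = 0.0488). Without PTH samples 1 and 4, an omission chosen after the values were seen, both Cdc20 (adjusted p = 0.0129) and Ube2c (adjusted p = 0.00670) were downregulated. Over all alternatives the adjusted p reached 0.607 for Cdc20 and 0.784 for Ube2c. Cdc20 overlaps Elovl1, Cdca8 overlaps 9930104L06Rik and Ube2c overlaps Tnnc2, each on the opposite strand. In its pair with Cdca8, 9930104L06Rik held 61.8% of the counts.

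The 2 genes of chromosome structure, both much used to mark dividing cells, differed in their calls. Mki67, of the Ki-67 protein that coats mitotic chromosomes, lies at chr7:135689784-135716361 and measured 40.5, 44.4, 43.9 and 56.4 CPM with vehicle and 33.2, 29.0, 30.3 and 33.5 CPM with PTH. Every PTH sample was lower, and Mki67 fell by 0.56 (SE 0.101, adjusted p = 7.68e-04). Top2a, of the topoisomerase that untangles sister DNA, lies at chr11:98992943-99024189 and measured 50.9, 58.4, 58.6 and 65.6 CPM with vehicle and 58.4, 50.3, 50.7 and 61.6 CPM with PTH. Its groups overlapped, and the log2 fold change of -0.079 (SE 0.0918, adjusted p = 0.512) did not pass. The promoter stretches of Mki67 and Top2a printed above each hold 2 CHR matches.

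Samples of a group also differed among themselves across many of these genes at once. Relative to the vehicle mean, the mitosis genes averaged -0.39, -0.65, -0.75 and -0.39 on the log2 scale in PTH samples 1 to 4, and -0.19, -0.031, 0.015 and 0.16 in vehicle samples 1 to 4. The same average for the replication genes was -0.10, -0.29, -0.33 and -0.15 with PTH and -0.088, 0.0029, -0.015 and 0.081 with vehicle. The mitosis averages did not overlap between the groups, whereas PTH sample 1 and vehicle sample 1 nearly met in the replication genes. Vehicle sample 4 was the highest vehicle sample in 34 of the 46 genes and vehicle sample 1 the lowest in 27. PTH sample 3 was the lowest PTH sample in 26. PTH samples 2 and 3 were both below PTH samples 1 and 4 in 32 of the 46 genes (69.6%), against 25.2% of all tested genes, and these 2 libraries also had the smaller total counts of the PTH group, 33605610 and 39559897 against 56090654 and 43965864. The part of depth was not tested. Without PTH samples 2 and 3, an omission chosen after the values were seen, 12 mitosis genes and 7 replication genes were downregulated and 4 replication genes upregulated (Rrm2 and Fen1 in addition to Tyms and Pcna). Without PTH samples 1 and 4, the counts were 20, 11 and 2. Of all genes, 3347 were downregulated and 3541 upregulated in the first of these fits (17422 tested). In the second, 4098 were downregulated and 4035 upregulated (17578 tested).

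**Figure D4:**
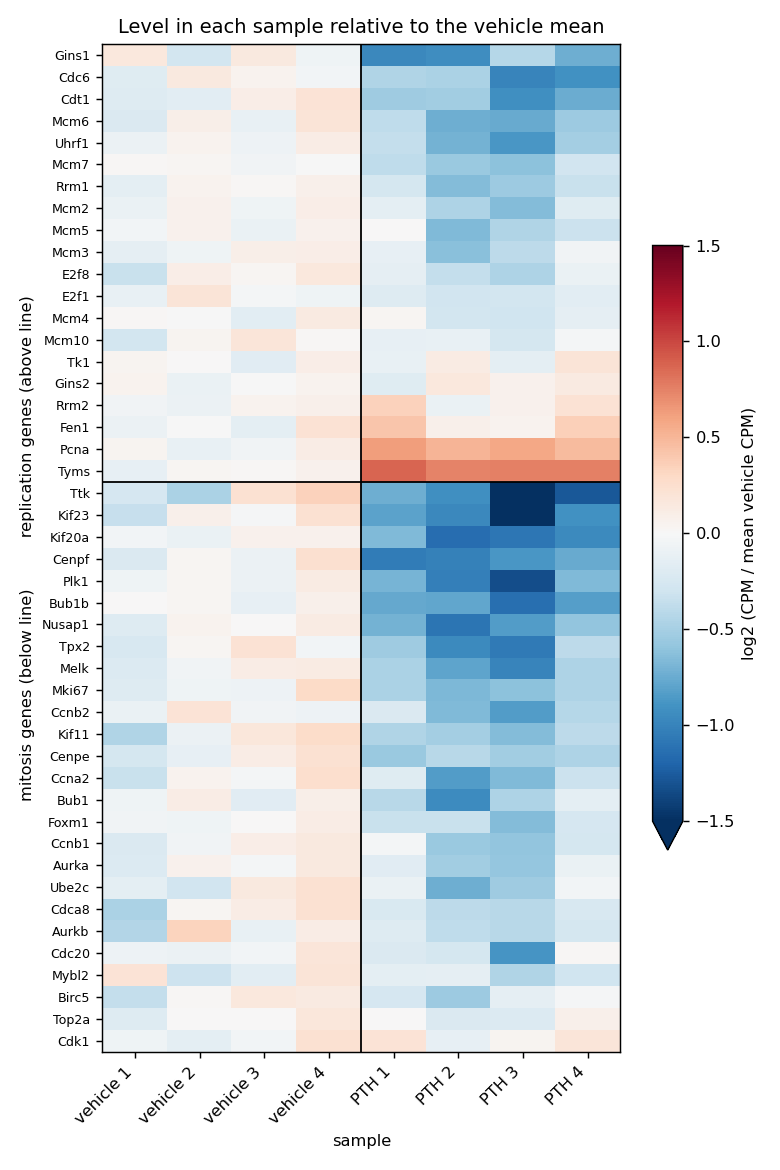
Level of each gene in each sample as log2 of its CPM over the mean vehicle CPM (colour, scale ending at -1.5 and 1.5), with replication genes above the horizontal line, mitosis genes below it, vehicle samples on the left and PTH samples on the right. PTH samples 2 and 3 are the deepest blue in most mitosis rows (averages -0.65 and -0.75), and Pcna and Tyms are red in all 4 PTH samples.

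Shared sequence was counted, since reads from overlapping genes cannot be told apart without strand. Of the 46 genes, 23 share exon bases or a locus with another gene or resemble a processed pseudogene. Tyms, Cenpf and Birc5 were not among the 23, though stretches of them resemble 28, 27 and 2 other genes. Their longest alignments were 361, 194 and 169 bases at 95.3%, 95.4% and 95.3% identity. In the 10 replication genes outside the 23, 6 were downregulated and 1 (Tyms) upregulated (median log2 fold change -0.31). In the 10 among the 23, the counts were 4 and 1 (median -0.12). In the 13 mitosis genes outside the 23, 9 were downregulated and 0 upregulated (median -0.51). In the 13 among the 23, the counts were 7 and 0 (median -0.39). Over all tested genes, 22.5% were downregulated and 23.3% upregulated.

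Other genes of the same steps were counted from lists. These lists, and those of regulators and G1 genes below, were chosen with earlier results of these data known. Of 48 other mitosis genes, 22 (45.8%) were downregulated and 4 (8.33%) upregulated, against 22.5% and 23.3% of all tested genes, and the median of their log2 fold changes was -0.35. Aspm, of a spindle pole protein, fell the most, from 9.86, 10.7, 11.6 and 12.6 CPM with vehicle to 4.33, 3.79, 4.12 and 4.11 CPM with PTH. The groups were far apart, and Aspm fell by 1.45 (SE 0.117, adjusted p = 9.01e-07). Cenpa, of the histone H3 variant that marks centromeres, went the other way, from 12.7, 11.5, 13.6 and 13.4 CPM to 51.9, 80.2, 72.5 and 60.8 CPM. Cenpa rose by 2.37 (SE 0.127, adjusted p = 2.33e-08), or 5.18-fold, and shares no exon bases with another gene. Of 44 other replication genes, 13 (29.5%) were downregulated and 6 (13.6%) upregulated, with a median of -0.11. These shares lie nearer to the 22.5% and 23.3% of all tested genes than those of the mitosis list. Orc1, of the largest origin recognition subunit, rose by 1.15 (SE 0.276, adjusted p = 0.00466), from 0.892, 1.81, 1.40 and 1.15 CPM to 2.75, 2.29, 2.504 and 4.11 CPM. Orc5, of another subunit, fell by 1.06 (adjusted p = 4.74e-05), and its locus holds a second symbol. The origin recognition complex held both extremes of that list.

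**Figure D5:**
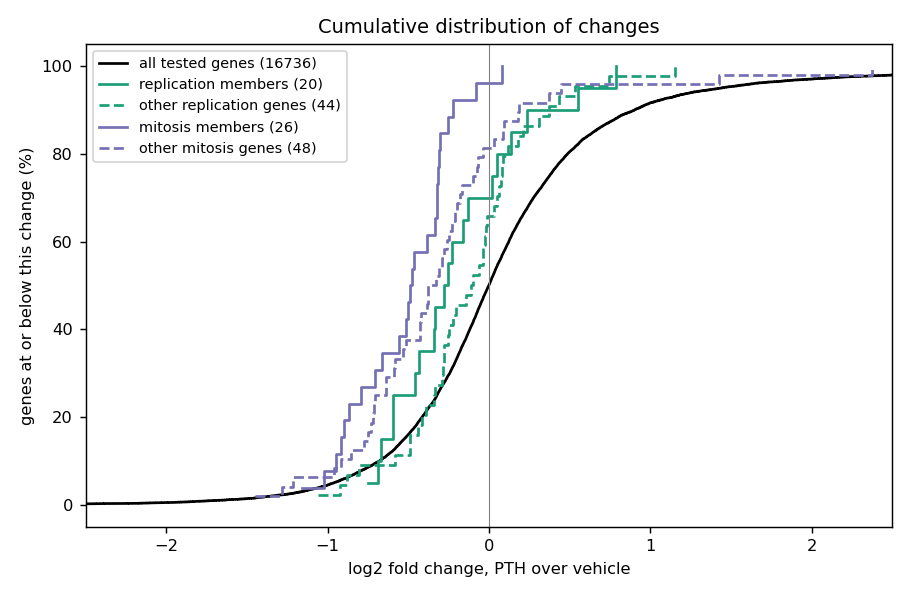
Share of genes (y axis, %) at or below each log2 fold change of PTH over vehicle (x axis) for all 16736 tested genes (black), the 20 replication and 26 mitosis genes (solid lines) and the 44 and 48 other genes of the same steps (dashed lines). At their medians the mitosis curves (-0.48 and -0.35) lie farthest left of the black curve (-0.00081), with the replication curves (-0.27 and -0.11) nearer to it.

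Of 16 regulators of these programs, 6 (37.5%) were downregulated and 4 upregulated, against 22.5% and 23.3% of all tested genes. RB proteins bind E2F, and Rbl1 fell by 0.53 (adjusted p = 6.72e-04) and Rbl2 by 0.48 (adjusted p = 4.30e-04), while Rb1 had a log2 fold change of -0.11 (adjusted p = 0.474). E2f6, a repressor of E2F targets, rose by 0.82 (adjusted p = 1.53e-06). E2f2, an activator, fell by 0.69 (adjusted p = 0.0343), and E2f7, the atypical partner of E2f8, rose by 0.45 (adjusted p = 0.0348), both with overlapping groups. Neither call was firm: E2f2 lost it without any 1 of 6 libraries (all but PTH sample 4 and vehicle sample 2, adjusted p between 0.0130 and 0.234 over all alternatives), and E2f7 lost it with no filter on low counts and without any 1 of 5 libraries (PTH samples 1, 3 and 4 and vehicle samples 1 and 3, adjusted p between 0.00570 and 0.363).

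Upstream in G1 phase, CDK inhibitors showed the larger changes, while of the 13 genes in the list 1 (Cdkn2b, 7.69%) was downregulated and 4 (30.8%) were upregulated, against 22.5% and 23.3% of all tested genes. Cdkn1b, of the CDK inhibitor p27, measured 68.4, 66.0, 65.5 and 59.0 CPM with vehicle and 170, 176, 190 and 184 CPM with PTH. The groups were far apart, and Cdkn1b rose by 1.48 (SE 0.0676, adjusted p = 5.68e-09), or 2.78-fold. Cdkn1a, of p21, rose by 0.78 (adjusted p = 9.30e-06), from 320, 329, 328 and 356 CPM to 632, 514, 533 and 608 CPM. Both inhibitors were higher in every PTH sample. Cdkn2b, of p15, fell by 0.68 (adjusted p = 7.69e-06). Ccnd1, of cyclin D1, did not pass at -0.062 on the log2 scale (adjusted p = 0.536), nor did Cdkn1c, of p57, at -0.037 (adjusted p = 0.728).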

How the data were processed

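Poly(A) libraries from 8 cultures (4 PTH, 4 vehicle) were read as paired ends by a sequencing company. The authors aligned them with HISAT2 to GRCm38 (mm10), sorted with SAMtools and assembled with StringTie2, whose companion script turned transcript coverage into the deposited whole-number count of each gene, not normalized. Its read length setting, the strand setting and the annotation version are not given in the sources used here. The table has 47706 genes, and 2 entries without a symbol (0.00281% of counts) were kept in the library sizes and put to the same filter. All 8 sample columns were mapped by name.

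The 2 treatments were compared in edgeR 4.0.16 (R 4.3.3): TMM normalization, filterByExpr (minimum count 10, minimum total 15) and the two-sided quasi-likelihood test over all 8 samples without covariates. At a p under 0.05 after Benjamini-Hochberg adjustment, genes were called upregulated or downregulated with no minimum fold change. CPM used TMM library sizes, and fold changes, SE and adjusted p came from the fit on all 16736 genes. Total counts of 33605610 to 56090654 per sample were available, and genes with few counts are the less precise. No 2 libraries of a group agreed within sampling noise. The mean squared difference between 2 libraries, over the value expected from sampling alone, was 11.3 to 33.4 for vehicle pairs. For PTH pairs it was 21.0 to 120, the highest between PTH samples 1 and 2.

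Members were grouped by role. For each role the member with the highest mean CPM and the one with the largest absolute log2 fold change were given by sample, as were Mki67, Pcna, Cdk1 and Top2a, and of each list of other genes the called gene with the largest rise and fall, plus Ccnd1, Cdkn1a, Cdkn1b, Cdkn1c, Rb1, Rbl1, Rbl2 and E2f7. Other members were given by their change. The members and lists were chosen with earlier results of these data known. Positions and exons came from GENCODE M21 on GRCm38, similar transcripts from blastn (alignments of at least 150 bases at 95% identity), and promoters from RefSeq on GRCm38.p6.

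Alternatives were DESeq2 1.42.0, its size factors in edgeR, no filter, the replicate block, each sample left out, halved counts (for the unstated read length), entries of one symbol summed, a minimum change of 1 on the log2 scale, and the 10 most abundant genes left out. An offset for transcript length and the omission of PTH samples 2 and 3, or of 1 and 4, were chosen after seeing the data. The scripts were tested on simulated data. Python 3.11.15, pandas 2.3.3 and matplotlib 3.10.9 served for tables and plots.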

Additional observations from a re-analysis of the deposited data

Results flagged for a closer look

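In 3 of 122 groups of 4 samples, 1 sample stood apart from the others by Dixon's test, at the 95% critical value. About 1 in 20 groups would be expected to do so by chance. Tyms measured 24.7 CPM in PTH replicate 1 and between 22.6 and 22.8 CPM in the other PTH samples. Ccnb2 measured 14.3 CPM in vehicle replicate 2 and between 11.6 and 11.9 CPM in the other vehicle samples. Cdc20 measured 18.6 CPM in vehicle replicate 4 and between 15.4 and 16.0 CPM in the other vehicle samples.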

How the results depend on the processing

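Of 28 called members, 20 kept their direction and their call in all 18 alternatives, 0 reversed, and 8 (Mcm2, Mcm5, E2f1, Ccna2, Bub1, Ccnb2, Kif11 and Gins1) lost the call in some. Ccnb2 and Kif11 lost it only without PTH samples 2 and 3, and Gins1 only without PTH samples 1 and 4. The offset for transcript length ended the calls of Mcm2, Mcm5, E2f1 and Bub1, DESeq2 that of E2f1 (adjusted p = 0.0510), and DESeq2's size factors in edgeR and no filter each that of Mcm5. The cause was not tested. Members that did not pass gained a call when 1 library was left out: Mcm3, Mcm4 and Ccnb1 (PTH sample 1), Mcm3, Aurka and Cdc20 (PTH sample 4), and Aurkb and Cdca8 (vehicle sample 1). Of the other named genes, Orc1 lost its call without PTH samples 1 and 4 (adjusted p = 0.0503).

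When single samples were omitted one by one, 2 replication genes were upregulated throughout, 7 to 12 replication genes and 14 to 18 mitosis genes were downregulated, 0 mitosis genes were upregulated, and of all genes 3412 to 4119 were upregulated and 3259 to 3955 downregulated. Under a minimum change of 1 on the log2 scale, 1232 genes were upregulated and 650 downregulated, with 0 and 0 replication genes and 2 downregulated mitosis genes, since few members changed that much. Without PTH samples 2 and 3, 4 replication genes were upregulated. Samples with the same number did not deviate together (correlations from -0.041 to 0.027, and no sample correlated best with its own number). With the replicate block 3571 genes were upregulated and 3432 downregulated, and E2f1 (adjusted p = 0.0856) was the only member to lose its call, as did E2f7 outside the members (adjusted p = 0.0655).

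Genes near zero changed sign. Tk1 took -0.019 with no filter, between -0.047 and 0.064 with single samples left out, and -0.033 without PTH samples 1 and 4, an omission that also took Rrm2 to -0.038, Cdk1 to -0.061 and Ccnd1 to 0.014. Without PTH samples 2 and 3, Gins2 took -0.00051, Top2a 0.054 and Cdkn1c 0.026. Ccnd1 took 0.0093 with the length offset, and Cdkn1c between -0.090 and 0.013 with single samples left out. None of these values passed the test. Depth keeps genes under the filter on low counts out of the test, which touched no member, and halving the counts ended no member's call.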
